A study of Mus musculus with 12 samples.

Results

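The 10 genes described here are Bmp2 and Bmp6, which encode ligands of the bone morphogenetic protein (BMP) family; Smad6, Smad7 and Bambi, which encode feedback inhibitors of the pathway; Id1, Id2, Id3 and Atoh8, which encode target transcription regulators; and Hamp, which encodes the iron hormone hepcidin. They were taken by name from the 36528 gene IDs of the count table, all 10 were found, and all 10 were among the 16032 genes that passed the filter on low counts. Whole liver RNA of 12 mice was sequenced. Of these, 6 were injected intraperitoneally with carbon tetrachloride (CCl4), a solvent that hepatocytes convert into a toxic radical, and 6 with its corn oil vehicle, both over 6 weeks with 3 injections a week. The sources used here do not give strain, sex, age or the interval between the last injection and harvest. Repeated CCl4 injures and scars the liver, so the contrast is of chronic toxic injury with vehicle.

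BMP ligands bind paired serine/threonine kinase receptors, which phosphorylate SMAD1, SMAD5 and SMAD9. These enter the nucleus with SMAD4 and switch on targets that include the ID genes and the inhibitors that damp the pathway. In liver, sinusoidal endothelial cells make BMP2 and BMP6, and hepatocytes answer them through the co-receptor hemojuvelin by transcribing Hamp, whose product blocks iron export from cells. Interleukin-6 acts on Hamp through a separate route, STAT3.

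Id1 and Bambi rose after CCl4, and Atoh8 fell. Id1 was 3.51-fold and Bambi 2.18-fold higher, and Atoh8 was 1.79-fold lower, on levels given as CPM, the counts of a gene scaled to a common library size. The other 7 genes, including both ligands and Hamp, did not pass an adjusted p of 0.05 in edgeR's quasi-likelihood test. Of all tested genes 39.0% passed (20.6% higher and 18.4% lower in CCl4), so 3 of 10 is near the background. The median log2 fold change was 0.06 over the 10 genes and 0.01 over all tested genes. Since whole liver was sequenced, fewer cells of a type and less RNA per cell cannot be told apart.

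**Figure D1:**
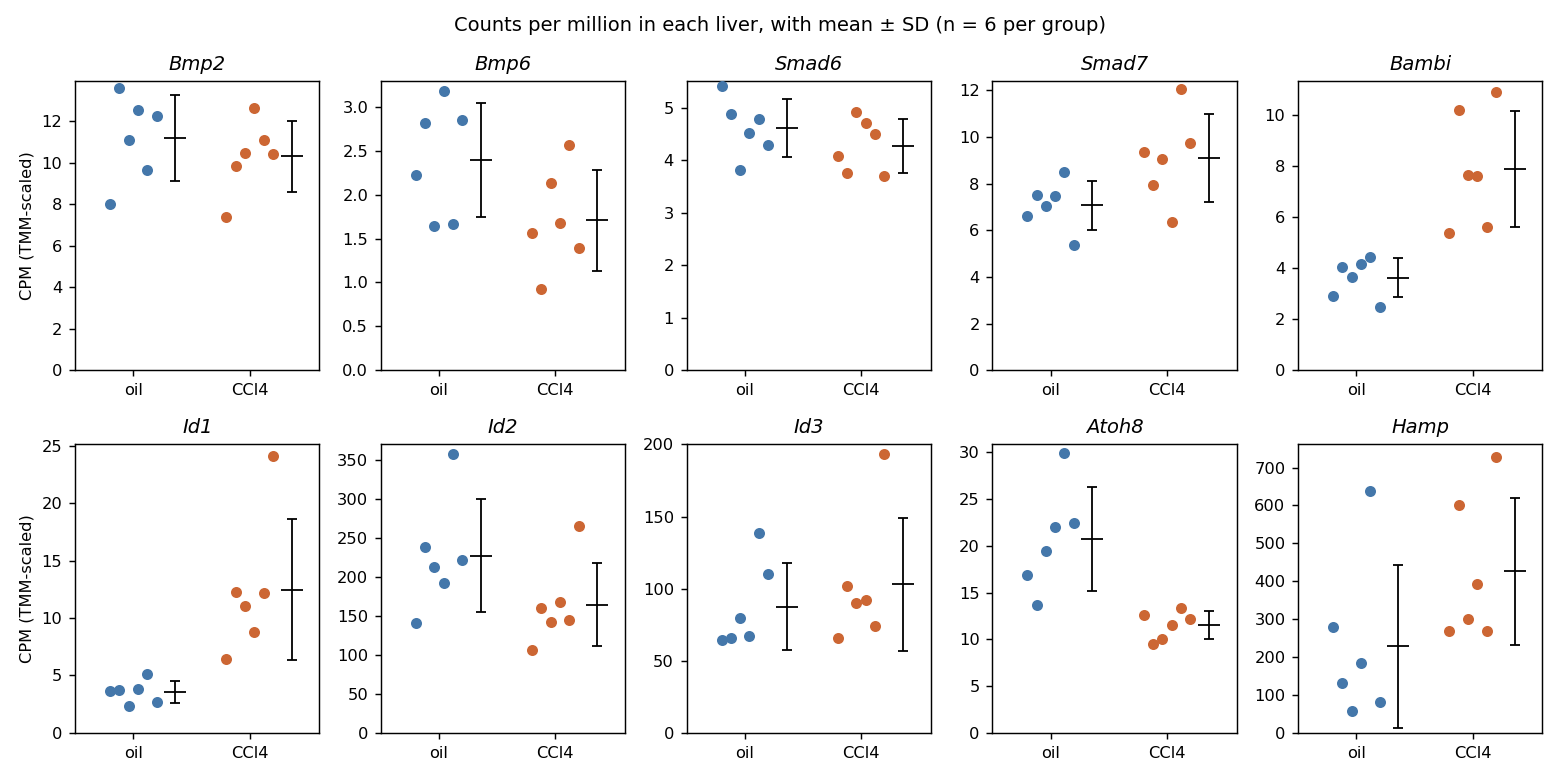
Normalised counts (CPM, vertical axis, from 0) of the 10 genes in each of 6 oil (blue) and 6 CCl4 (orange) livers; black marks are mean ± SD. All 6 CCl4 livers lie above all oil livers for Id1 and Bambi and below them for Atoh8, whereas Hamp in oil spans 58.3 to 637 CPM.

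Total counts ran from 43027778 to 70375852 per library. The libraries differed in how strongly they favoured short transcripts. The slope of log2 CPM on log2 transcript length ran from -0.10 to 0.30 in oil and from -0.32 to 0.22 in CCl4. A lower slope means higher levels of short genes relative to long ones. The lowest slopes were those of oil replicate 5 and CCl4 replicate 6. Both also had the largest share of counts on transcripts under a kilobase in their group (6.9% and 8.1%). Among the other oil libraries this share did not follow the slope. It was 6.6% in replicate 1 (slope 0.22) and 5.6% in replicate 2 (slope 0.10). These differences between libraries bear on Hamp, whose longest annotated transcript has 410 bases against a median of 3330 over tested genes. Only 0.13% of tested genes with a known length are as short or shorter. Id1 (1160 bases) and Id3 (1278 bases) are also short. Hepatocyte markers were high in every library (10 genes summing to 116000 to 177000 CPM), as in liver.

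Per kilobase of transcript (RPKM, here CPM divided by transcript length), Hamp was the most abundant of the 10 in oil at 557 ± 525 (mean ± SD, n = 6), followed by Id2 at 115 ± 36.7 and Id3 at 68.6 ± 23.7. The range of Id2 overlapped those of Hamp and Id3, but the ranges of Hamp (142 to 1550) and Id3 (50.5 to 108) did not overlap. Atoh8 followed at 8.81 ± 2.36, apart from its neighbours on either side. Bmp2 (3.15 ± 0.58) and Id1 (3.07 ± 0.86) overlapped, as did Smad7 (1.65 ± 0.245) and Smad6 (1.56 ± 0.185), and Bambi (0.715 ± 0.151) and Bmp6 (0.667 ± 0.182) were lowest. In CCl4 the order differed in the place of 2 genes: Id1, at 10.7 ± 5.27 RPKM, stood above Atoh8 at 4.91 ± 0.639, with overlapping ranges, and Bambi, at 1.56 ± 0.45, above Smad6 at 1.44 ± 0.172, also overlapping.

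Neither ligand passed the test. Bmp2 (gene ID 12156, chr2:133552159-133562896, GRCm38) had its lowest, median and highest level at 8.03, 11.7 and 13.6 CPM in oil and at 7.39, 10.5 and 12.6 CPM in CCl4, so the groups covered nearly the same range (log2 fold change -0.12 ± 0.16 SE, adjusted p = 0.561). Bmp6, the ligand that responds to liver iron (gene ID 12161, chr13:38345716-38500314), stood at 1.64, 2.52 and 3.18 CPM in oil and at 0.931, 1.62 and 2.57 CPM in CCl4. Of the CCl4 livers 3 lay below the lowest oil liver, and the others overlapped the oil group (log2 fold change -0.49 ± 0.25 SE, adjusted p = 0.136). Without CCl4 replicate 5, the CCl4 liver with most Bmp6, the gene passed (log2 fold change -0.66, adjusted p = 0.043). Bmp6 rested on 63 to 194 counts per library, and 224 of its 3900 exon bases (5.74%) overlap exons of Txndc5 on the opposite strand. Txndc5, a chaperone gene, was far more abundant, at 211 ± 36.6 CPM in oil and 217 ± 19.8 in CCl4 (adjusted p = 0.82), and the use of strand in counting is not given in the sources used here.

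Among 11 other BMP ligands 7 could be tested, of which 1 rose and 1 fell, with a median log2 fold change of -0.26. The share called was 28.6%, against 39.0% of all tested genes. Bmp8b rose from 0.104 ± 0.11 to 1.29 ± 0.363 CPM (SD, n = 6 each), and all CCl4 livers lay above all oil livers (adjusted p = 7.79e-05). In the oil libraries it had between 0 and 15 counts, so that its fitted log2 fold change of 3.61 ± 0.51 SE depends on the prior count, and it has a close copy, Bmp8a, with which reads could be shared. Bmp10, made in the heart and by stellate cells, fell from 0.82 ± 0.478 to 0.164 ± 0.111 CPM (adjusted p = 0.00198), with 3 to 28 counts per CCl4 library. Gdf2, which encodes BMP9, the circulating ligand made by stellate cells, was at 16.3 ± 2.87 CPM in oil and 19.7 ± 0.796 CPM in CCl4 and did not pass (adjusted p = 0.0941). It passed when oil replicate 3 was dropped (adjusted p = 0.0373) and under 3 other settings: upper-quartile scaling (adjusted p = 0.0174), limma-voom (adjusted p = 0.0342) and a model that includes each library's length slope (adjusted p = 0.0443). Gdf6 did not pass either (log2 fold change 0.74, adjusted p = 0.0854), but did as higher with the length slope in the model (1.12, adjusted p = 0.00951) and without oil replicate 6 (adjusted p = 0.0431).

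Of 11 tested receptors and co-receptors 6 fell and 1 rose, with a median log2 fold change of -0.29, where 18.4% of all tested genes fell and 20.6% rose. The excess of falls was not seen with upper-quartile scaling or without CCl4 replicate 6, where 2 rose and 2 fell. The one that rose was Acvrl1 (ALK1), the endothelial type I receptor for BMP9 and BMP10, which was 2.30-fold higher. Its lowest, median and highest levels were 2.27, 2.66 and 2.95 CPM in oil and 5.25, 6.05 and 6.81 CPM in CCl4, with a gap between the groups (log2 fold change 1.20 ± 0.12 SE, adjusted p = 5.87e-06). Its co-receptor Eng, endoglin, was at 56 ± 9.91 CPM in oil and 47.6 ± 10.3 CPM in CCl4 and did not pass (adjusted p = 0.268). The type II activin and BMP receptors Acvr2b and Acvr2a fell 2.09-fold and 1.39-fold (adjusted p = 0.00724 and 0.00601). Bmpr2, the type II BMP receptor, fell 1.31-fold (adjusted p = 0.0357), but its call was lost without oil replicate 1, 3, 4 or 6 or CCl4 replicate 2, 4 or 6 (adjusted p from 0.0509 to 0.079), without oil replicate 5 and CCl4 replicate 6 together (adjusted p = 0.0505), with no filter on low counts (adjusted p = 0.0574), under the upper-quartile factors (adjusted p = 0.132) and with the length slope in the model (adjusted p = 0.0897). Its log2 fold change went from -0.39 to -0.06 once trends in transcript length and GC content were removed. Hjv, hemojuvelin, fell 1.34-fold (adjusted p = 0.0261), a call lost without oil replicate 2 or 4 or CCl4 replicate 4 or 6 (adjusted p of up to 0.0618), with upper-quartile scaling (log2 fold change -0.30, adjusted p = 0.114) and with the length slope in the model (adjusted p = 0.0603). Without oil replicate 4 or CCl4 replicate 4 the list had 3 called genes in place of 7, and without oil replicate 3 or 6 or CCl4 replicate 2 it had 4 (1 risen and 3 fallen).

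Among the SMADs, Smad9 (SMAD8), a signalling SMAD that is itself a BMP target, fell 3.41-fold. Its lowest, median and highest levels were 4.14, 6.03 and 12.9 CPM in oil and 1.06, 1.49 and 3.59 CPM in CCl4, and the groups did not overlap (log2 fold change -1.77 ± 0.37 SE, adjusted p = 0.00176). The other BMP SMADs did not pass: Smad1 was at 16.5 ± 2.03 CPM in oil and 15.5 ± 1.99 CPM in CCl4 (adjusted p = 0.581), and Smad5 at 33.3 ± 4.05 and 38.8 ± 3.67 CPM (adjusted p = 0.133). Smad5 passed as higher with the length and GC trends removed (log2 fold change 0.42 against 0.22, adjusted p = 0.0293), under upper-quartile scaling (adjusted p = 0.0224), by limma-voom (adjusted p = 0.045) and without oil replicate 5 (adjusted p = 0.0469). Of 12 SMADs and SMAD regulators 6 fell and 1 rose (median log2 fold change -0.31), where 18.4% of all tested genes fell and 20.6% rose. With upper-quartile scaling 2 fell and 2 rose. Fkbp1a, whose product holds type I receptors inactive, was the one that rose, 1.65-fold (adjusted p = 0.000165), and the SMAD phosphatase gene Ppm1a fell 1.46-fold (adjusted p = 0.00643; adjusted p = 0.178 with the length and GC trends removed). The list had 3 called genes without oil replicate 3 or with no filter on low counts. It had 4 without oil replicate 4 or 6 or CCl4 replicate 2 or 4 and with the stricter filter.

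The 3 feedback inhibitors differed from each other. Bambi, a decoy receptor that lacks a kinase, stood at 2.50, 3.87 and 4.45 CPM in oil and at 5.40, 7.64 and 10.9 CPM in CCl4 (lowest, median, highest). Every CCl4 liver was above every oil liver (log2 fold change 1.13 ± 0.21 SE, adjusted p = 0.000784). Smad7, which blocks type I receptors of both the BMP and the TGF-beta branch, stood at 5.37, 7.25 and 8.51 CPM in oil and at 6.36, 9.22 and 12.1 CPM in CCl4. Of the CCl4 livers 4 were above the highest oil liver and replicate 4 was near the bottom of the oil range. Smad7 did not pass (log2 fold change 0.36 ± 0.16 SE, adjusted p = 0.0865). It did so without CCl4 replicate 4 (adjusted p = 0.037) and under upper-quartile scaling (adjusted p = 0.0292). Smad6, an inhibitor with a preference for the BMP branch (gene ID 17130, chr9:63953076-64022085), stood at 3.82, 4.65 and 5.42 CPM in oil and at 3.70, 4.29 and 4.92 CPM in CCl4. The groups overlapped almost fully (log2 fold change -0.11 ± 0.13 SE, adjusted p = 0.523), and the sign turned with upper-quartile scaling (0.01). The log2 ratio of Smad6 to Smad7 within a liver was -0.61 ± 0.25 in oil and -1.07 ± 0.37 in CCl4 (SD, n = 6 each), and 5 of 6 CCl4 livers lay below all oil livers. The difference of -0.46 ± 0.18 SE did not pass after adjustment over 6 ratios (exact two-sided permutation p = 0.0346, adjusted p = 0.0693). Without CCl4 replicate 4 it was -0.58 and passed (exact permutation adjusted p = 0.013).

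Of 13 tested extracellular antagonists 5 rose and none fell (median log2 fold change 0.08). The share called, 38.5%, is near the 39.0% of all tested genes, of which 20.6% rose and 18.4% fell. Fstl1, a follistatin-like glycoprotein of mesenchymal cells that binds BMP4, was 4.49-fold higher, going from 7.72 ± 1.75 to 34.7 ± 7.17 CPM (adjusted p = 1.26e-06). Bmper, a BMP-binding protein of endothelial cells, was 4.14-fold higher, going from 0.521 ± 0.294 to 2.13 ± 0.446 CPM (adjusted p = 0.000103). Fstl3, a binder of activins and some BMPs, rose 3.22-fold to 0.901 ± 0.117 CPM (adjusted p = 6.36e-05). All 6 CCl4 livers were above all 6 oil livers for each of these 3 genes. Nog, Grem1, Sostdc1 and Cer1 were below the filter, and Cer1 had no count in any library.

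**Figure D2:**
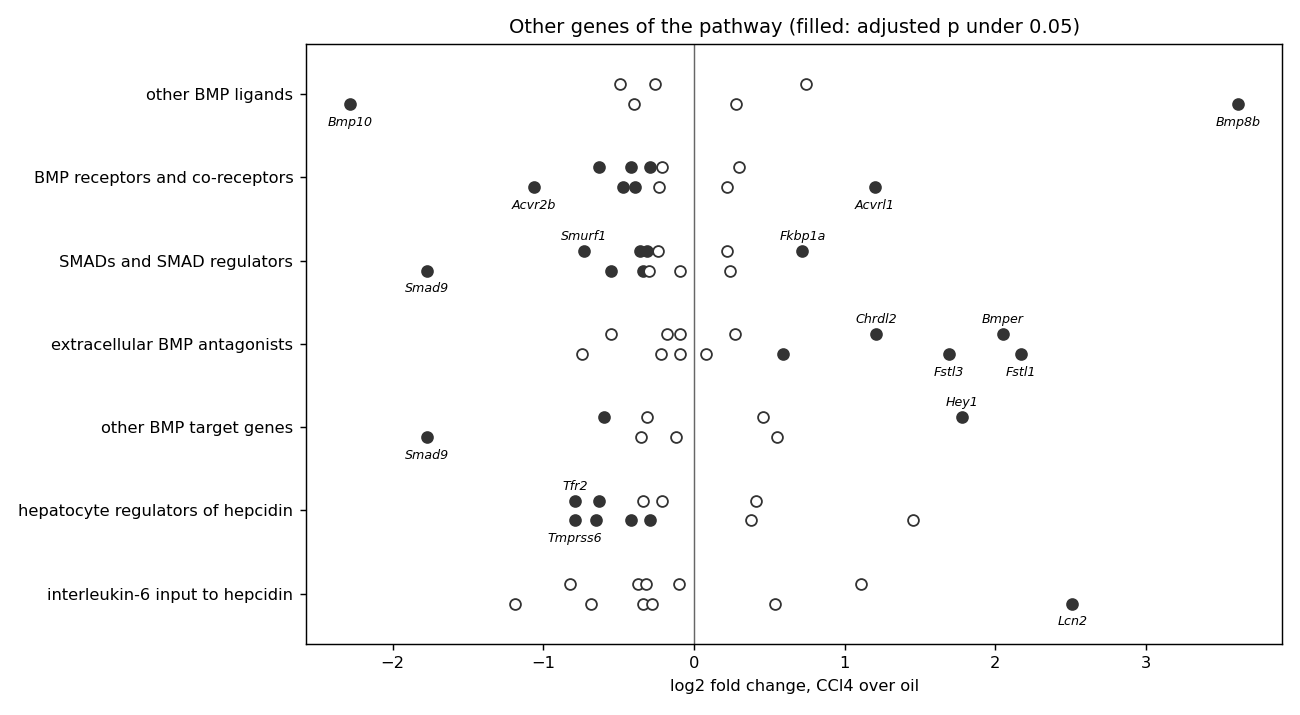
Log2 fold change of CCl4 over oil (horizontal axis) for the tested genes of 7 lists of the pathway, 1 point per gene; filled points have an adjusted p under 0.05, and those with larger changes are named. Acvrl1, Bmp8b, Fstl1, Bmper and Hey1 lie to the right, and Bmp10, Smad9 and Acvr2b to the left.

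The 3 ID genes encode helix-loop-helix proteins without a DNA-binding region, which hold back other transcription factors. Id1 (gene ID 15901, chr2:152736251-152737410) stood at 2.32, 3.70 and 5.15 CPM in oil and at 6.44, 11.6 and 24.1 CPM in CCl4. The groups did not overlap (log2 fold change 1.81 ± 0.29 SE, adjusted p = 0.000238), and the gene passed in all 23 alternative settings, with log2 fold changes from 1.41 (length slope in the model) to 1.94. Its highest libraries were CCl4 replicate 6 and, within oil, replicate 5, the libraries richest in short transcripts in each group. The longer genes Id2 (1969 bases) and Bambi (5074 bases) were also highest in these libraries. Without these 2 libraries the log2 fold change of Id1 was 1.65. Id3 (gene ID 15903, chr4:136143822-136145392) was also highest in these libraries. It stood at 64.5, 73.5 and 139 CPM in oil and at 65.6, 91.1 and 194 CPM in CCl4 (log2 fold change 0.23 ± 0.27 SE, adjusted p = 0.511). Its sign turned without CCl4 replicate 6 (-0.05), with the length slope in the model (-0.20) and with the length and GC trends removed (-0.07). Id2 (gene ID 15902, chr12:25093799-25096092) stood at 141, 217 and 358 CPM in oil and at 107, 153 and 265 CPM in CCl4 and did not pass (log2 fold change -0.47 ± 0.23 SE, adjusted p = 0.124). It passed as lower without CCl4 replicate 6 (-0.65, adjusted p = 0.0244), without both libraries favouring short transcripts most, oil replicate 5 and CCl4 replicate 6 (-0.48, adjusted p = 0.0309), with the length slope in the model (-0.82, adjusted p = 0.000819) and with the trends removed (-0.68, adjusted p = 0.00469). Id4 was under 1 CPM in every liver and did not pass (adjusted p = 0.0851). It passed as higher without oil replicate 6 (adjusted p = 0.0181), under upper-quartile scaling (adjusted p = 0.039) and by limma-voom (adjusted p = 0.0291).

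Atoh8, a helix-loop-helix factor that BMP signalling and iron raise in liver (gene ID 71093, chr6:72206174-72235780), stood at 13.7, 20.8 and 29.9 CPM in oil and at 9.56, 11.9 and 13.4 CPM in CCl4. Every CCl4 liver was below every oil liver, by a small margin (log2 fold change -0.84 ± 0.17 SE, adjusted p = 0.00165). The log2 fold change lay between -0.94 and -0.72 in 23 alternatives, all past the threshold. Groups that do not overlap were thus found for 3 of the 10 genes and, over all genes, for 3207 of 16032 tested. Of 8 other tested BMP target genes 1 rose and 2 fell (median log2 fold change -0.21). The share called, 37.5%, is near the 39.0% of all tested genes. Hey1, an endothelial repressor that Notch also induces, rose 3.44-fold, from 0.404 ± 0.0854 to 1.39 ± 0.183 CPM (adjusted p = 9.58e-06). Smad9 fell as given above. Gata4 fell from 22.3 ± 3.01 to 14.7 ± 5.37 CPM (adjusted p = 0.0394), a call lost without oil replicate 2, 3, 4 or 6 or CCl4 replicate 2, 4 or 6 (adjusted p from 0.0512 to 0.0855), under the upper-quartile factors (adjusted p = 0.0937), with the stricter filter (adjusted p = 0.0504) and with the length slope in the model (log2 fold change -0.29 against -0.60, adjusted p = 0.0678).

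**Figure D3:**
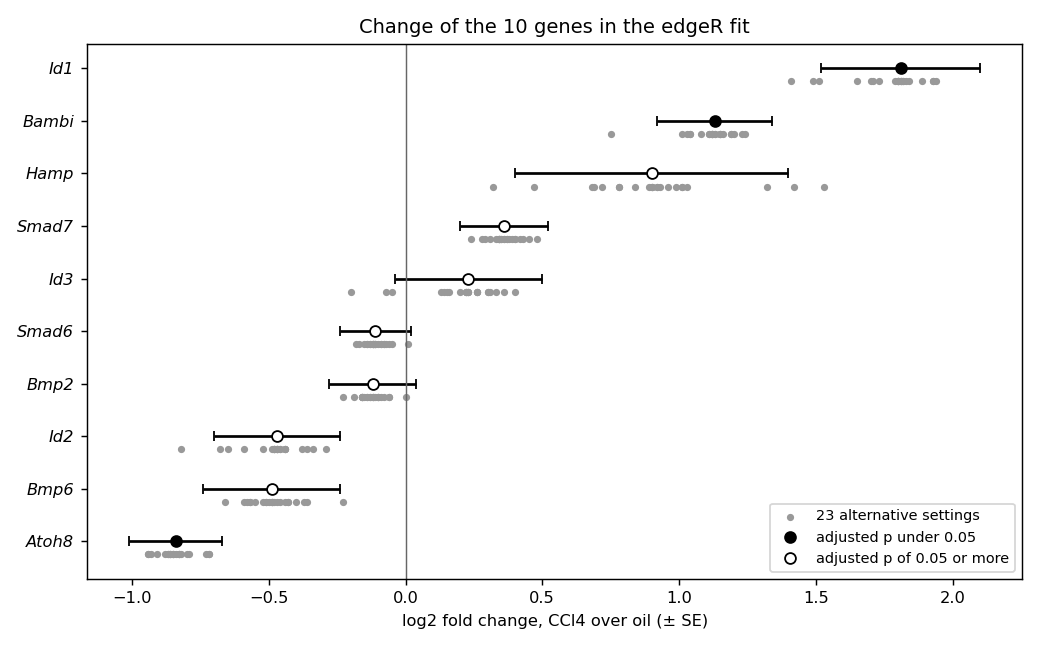
Log2 fold change of CCl4 over oil (horizontal axis, ± SE) of the 10 genes in the edgeR fit, with the values under 23 alternative settings as grey points. Id1 and Bambi lie to the right of 0 and Atoh8 to the left in every setting, and Hamp runs from 0.32 to 1.53.

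Hamp (gene ID 84506, chr7:30942368-30944029) is known to respond to BMP and to interleukin-6 through its promoter, so the 250 bases before its start (chr7:30944030-30944279, minus strand, GRCm38.p6, RefSeq) are shown, with GGCGCC, the core of BMP response elements, and TTCNNNGAA, the core bound by STAT3, in capitals.
Hamp: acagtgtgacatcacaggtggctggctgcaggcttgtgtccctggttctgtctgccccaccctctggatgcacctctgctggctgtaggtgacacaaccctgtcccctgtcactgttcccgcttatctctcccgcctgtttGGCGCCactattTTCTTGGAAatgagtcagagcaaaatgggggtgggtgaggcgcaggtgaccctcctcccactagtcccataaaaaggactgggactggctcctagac
The first begins 109 bases and the second 97 bases before the start, and the matches do not overlap. Both cores read the same on either strand. Over all 32851 RefSeq windows of this kind, from 250 bases before to 50 after a start, 11.9% hold GGCGCC and 8.3% hold TTCNNNGAA. Windows were at hand for 6 of the 10 genes (Id2, Id3, Smad6, Atoh8, Bmp6 and Hamp), and besides Hamp only that of Id2 held GGCGCC, beginning 231 bases before its start.

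The neighbouring gene Hamp2 is a near copy, and its transcript is identical to that of Hamp in 388 of 417 aligned columns (93.0%), so reads could be shared between them. At the place of the GGCGCC core its promoter differs by the substitution G4A (position counted from 1 at the first base of the core, Hamp first). The core of Hamp and the aligned bases of Hamp2, in capitals, with 12 bases on either side (chr7:30944121-30944150 and chr7:30924270-30924299, minus strand, GRCm38.p6), are shown to compare the copies.
Hamp: tcccgcctgtttGGCGCCactattttcttg
Hamp2: tcccgcctgtttGGCACCactatcttcttg

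Hamp stood at 58.3, 158 and 637 CPM in oil and at 268, 346.5 and 727 CPM in CCl4 (lowest, median, highest). In oil it was 637 CPM in replicate 5 and at most 278.5 CPM in the other 5 livers, and the lowest CCl4 liver was above 4 of the 6 oil livers. The log2 fold change of 0.90 ± 0.50 SE did not pass (adjusted p = 0.165). Over the alternatives it ran from 0.32 (length slope in the model, adjusted p = 0.554) to 1.53 (without oil replicate 5, adjusted p = 0.00834). Leaving out oil replicate 5 and CCl4 replicate 6 together gave 1.32 (adjusted p = 0.0142) and limma-voom gave 1.42 (adjusted p = 0.0116), both past the threshold. It was 0.47 with the length and GC trends removed (adjusted p = 0.309). The highest Hamp level of each group was that of its library with the lowest length slope, oil replicate 5 and CCl4 replicate 6. The next highest in CCl4, replicate 2, had the next lowest slope. In oil the next highest, replicate 1 at 278.5 CPM, had a slope of 0.22, while replicate 2, with a slope of 0.10, had 131 CPM. By the share of counts on transcripts under a kilobase, replicate 1 was second in oil (6.6%), and replicate 2 had 5.6%. In CCl4 the livers stood in the same order by this share as by Hamp, from replicate 6 (8.1%) to replicate 5 (4.2%). In oil they did so too except for replicate 3, which had 6.3% and the lowest Hamp. The part of the length trend in these values was not tested further. Hamp2 was at 3.37 ± 2.64 CPM in oil and 9.16 ± 8.97 CPM in CCl4 and did not pass (adjusted p = 0.11). Its CCl4 mean rested on replicates 2 (22.7 CPM) and 4 (18.3 CPM), the other 4 lying between 2.56 and 5.51 CPM.

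**Figure D4:**
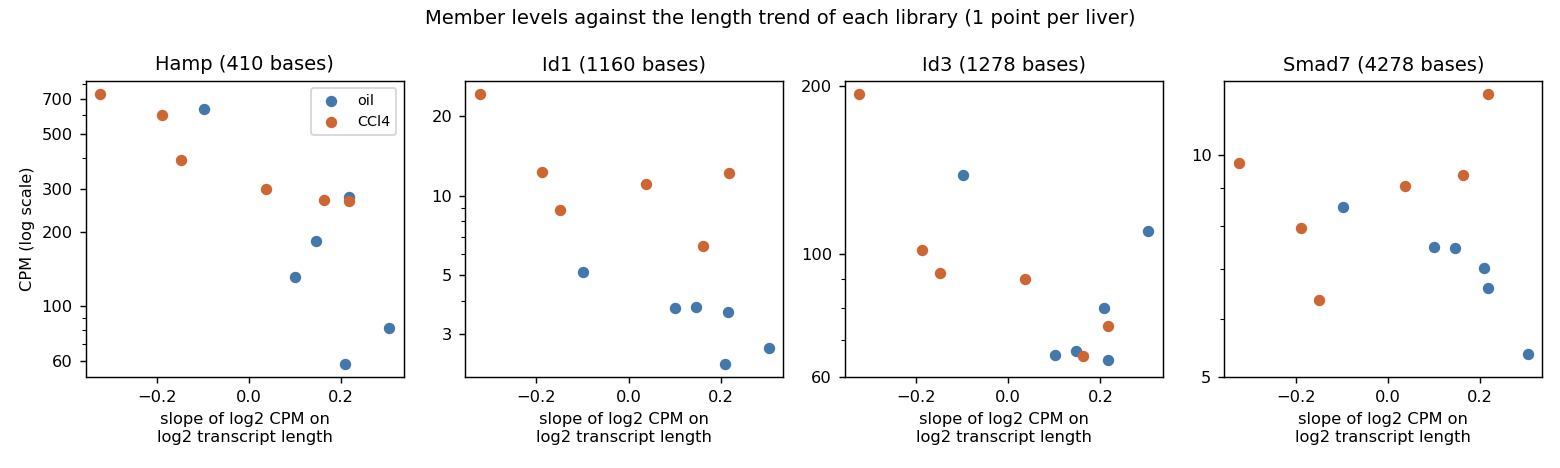
Level of Hamp, Id1, Id3 and Smad7 (CPM, log axis) against the slope of log2 CPM on log2 transcript length of the same library (horizontal axis), 1 point per liver, oil in blue and CCl4 in orange. Hamp is highest in each group at the lowest slope (637 CPM in oil, 727 CPM in CCl4), and Id1 is higher in CCl4 at low and high slopes.

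Among 11 tested genes listed as hepatocyte regulators of hepcidin, 6 were lower and none higher after CCl4 (median log2 fold change -0.34). Of all tested genes 18.4% fell and 20.6% rose. Hjv, Neo1 and Bmpr1a of the 6 lower genes also stand in the receptor list. The list also holds Hamp2 and the iron transport genes Slc40a1 and Tfrc, none of which passed. With upper-quartile scaling 2 of the list were lower and 1 higher (median log2 fold change -0.23). Tmprss6, the protease that cleaves hemojuvelin and so restrains Hamp, stood at 426, 489 and 551 CPM in oil and at 227, 280 and 341 CPM in CCl4. The groups did not overlap, and the gene was 1.73-fold lower (log2 fold change -0.79 ± 0.13 SE, adjusted p = 0.000217). Tfr2, a sensor of transferrin-bound iron that promotes Hamp, was also 1.73-fold lower, at 248 ± 64.7 CPM against 429 ± 88.1 CPM (adjusted p = 0.00408). Hfe, its partner, was at 64 ± 10.5 CPM in oil and 50.4 ± 10.1 CPM in CCl4 and did not pass (adjusted p = 0.0907). It passed as lower with the length slope in the model (log2 fold change -0.62 against -0.34, adjusted p = 1.38e-05) and without CCl4 replicate 6 (adjusted p = 0.0499). The list had 2 called genes without oil replicate 4 or CCl4 replicate 4, and 3 without oil replicate 6 or CCl4 replicate 2 or 6, all of them lower. Across the 7 lists, with each gene counted once, 10 of 68 tested genes rose and 17 fell. Together these are 39.7%, near the 39.0% of all tested genes. With upper-quartile scaling 15 rose and 7 fell, and without CCl4 replicate 4 the counts were 9 and 8.

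Of 11 tested genes of the interleukin-6 route to hepcidin 1 rose and none fell (median log2 fold change -0.32). The share called was 9.1%, against 39.0% of all tested genes. Lcn2, lipocalin 2, an acute-phase protein that binds siderophores, rose 5.68-fold from 54.6 ± 57.1 to 310.3 ± 93.7 CPM (adjusted p = 0.00839). Saa1, serum amyloid A, ranged from 38.1 to 2467 CPM in oil, highest in replicate 5, the oil liver with most Hamp. The other oil livers did not keep this order. Replicate 1, lowest in Saa1, had 278.5 CPM of Hamp, and replicate 6, at 931 CPM of Saa1, had 81.7 CPM of Hamp. In CCl4 Saa1 ranged from 101.0 to 902 CPM, highest in replicate 2. Saa1 did not pass (log2 fold change -0.82 ± 0.86 SE, adjusted p = 0.467), and its sign turned without oil replicate 5 (0.12). Socs3, a feedback target of STAT3, was at 14.4 ± 6.52 CPM in oil and 20.9 ± 8.07 CPM in CCl4 (adjusted p = 0.186), and passed as higher by limma-voom (adjusted p = 0.0413). Saa3, another serum amyloid A gene, did not pass (log2 fold change 1.11, adjusted p = 0.122). It passed as higher without oil replicate 5 (1.78, adjusted p = 0.00834), without that library and CCl4 replicate 6 together (1.38, adjusted p = 0.0126) and by limma-voom (1.55, adjusted p = 0.00237). The kinase gene Jak2 did not pass (log2 fold change -0.37, adjusted p = 0.0725) and passed as lower in 5 settings: without oil replicate 5, without CCl4 replicate 5, without oil replicate 5 and CCl4 replicate 6 together, by limma-voom and by DESeq2 (adjusted p from 0.00833 to 0.0489). Without oil replicate 5, without CCl4 replicate 5, and without oil replicate 5 and CCl4 replicate 6 together, 3 genes of this list were called, and 5 with limma-voom.

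Ratios of 2 genes in the same liver test whether they changed by different amounts, free of library scaling. They are not free of the length trend, since Id1 (1160 bases) and Hamp (410 bases) are shorter than Bmp6 (3593 bases). With the length slope in the model, the log2 fold change of Id1 went from 1.81 to 1.41 and that of Bmp6 from -0.49 to -0.23. The same model moved Bambi, a long gene (5074 bases), from 1.13 to 0.75. With the length and GC trends removed instead, Id1 was at 1.49 and Bmp6 at -0.47. The log2 ratio of Id1 to Bmp6 was 0.56 ± 0.58 in oil and 2.79 ± 0.86 in CCl4 (SD, n = 6 each), with all CCl4 livers above all oil livers. The difference of 2.22 ± 0.42 SE had the smallest p that 6 against 6 livers allow (exact two-sided permutation p = 0.00216, adjusted p = 0.013 over 6 ratios). Hamp to Bmp6 was 6.14 ± 1.39 in oil and 7.89 ± 1.05 in CCl4, a difference of 1.75 ± 0.71 SE that did not pass (exact permutation p = 0.0346, adjusted p = 0.0693) and passed without oil replicate 5 (2.23, exact permutation adjusted p = 0.026). Hamp to Id1 was 5.57 ± 0.88 in oil and 5.10 ± 0.46 in CCl4, and the difference of -0.47 ± 0.40 SE did not pass (exact permutation adjusted p = 0.343). Hamp to Hamp2 differed by -0.11 ± 0.58 SE (exact permutation adjusted p = 0.812). Per kilobase, Bmp6 to Bmp2 was -2.25 ± 0.34 in oil and -2.63 ± 0.49 in CCl4 (exact permutation adjusted p = 0.224), so that Bmp2 exceeded Bmp6 in every liver.

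**Figure D5:**
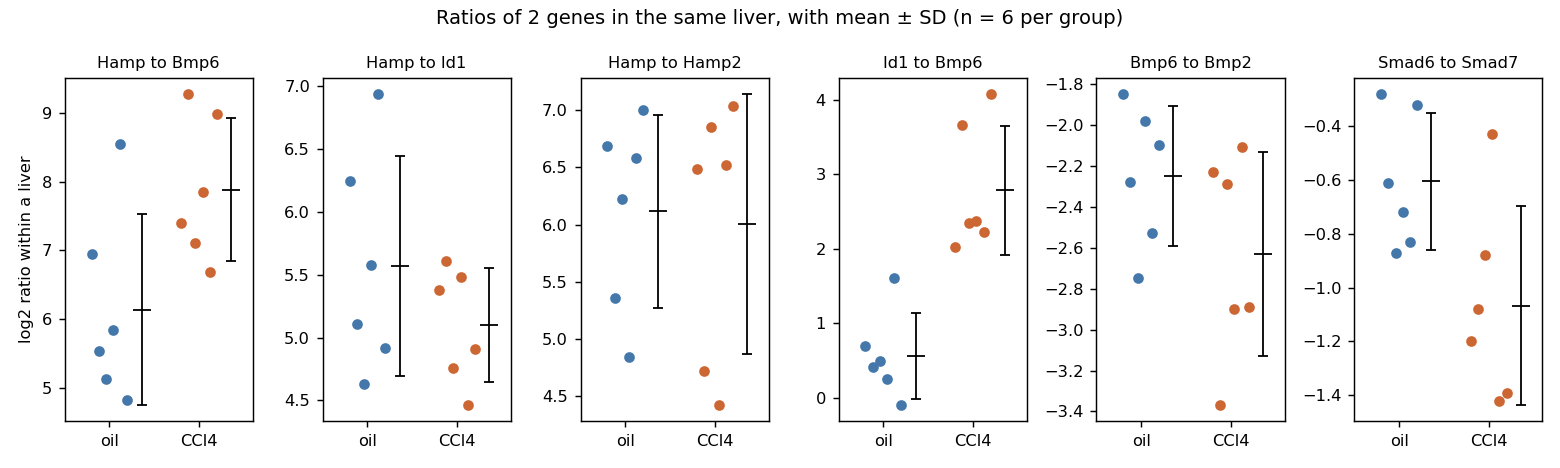
Log2 ratio of 2 genes in the same liver (vertical axis, a separate scale in each panel) in 6 oil (blue) and 6 CCl4 (orange) livers, with mean ± SD in black; Bmp6 to Bmp2 is per kilobase. All CCl4 livers are above all oil livers for Id1 to Bmp6, and 5 of 6 are below them for Smad6 to Smad7.

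Within each group of 6 livers, log2 CPM of Hamp was set against that of Bmp6, Id1, Smad6, Smad7 and Atoh8, which gave 10 relations. In oil Hamp went with Id1 (Pearson's r = 0.94, exact permutation p = 0.0111, adjusted p = 0.111; Spearman's rho = 0.83, exact permutation p = 0.0583, adjusted p = 0.454), and r was 0.74 without the 2 livers farthest from the median of Id1. In CCl4 the same pair gave r = 0.73 (exact permutation p = 0.0917, adjusted p = 0.285) and rho = 0.60 (exact permutation p = 0.242, adjusted p = 0.483), and r was 0.04 without the 2 farthest livers, so that the relation there rests on those livers. With Smad6 r was 0.70 in oil (exact permutation p = 0.114, adjusted p = 0.285; rho = 0.71, exact permutation p = 0.136, adjusted p = 0.454) and -0.72 in CCl4 (exact permutation p = 0.146, adjusted p = 0.292; rho = -0.54, exact permutation p = 0.297, adjusted p = 0.495). With its ligand Bmp6 r was -0.21 in oil (exact permutation p = 0.682, adjusted p = 0.682; rho = 0.03, exact permutation p = 1) and -0.75 in CCl4 (exact permutation p = 0.0944, adjusted p = 0.285; rho = -0.77, exact permutation p = 0.103, adjusted p = 0.454). None of the 10 passed after adjustment. With the length and GC trends removed from each library, r in oil was 0.95 with Id1 and 0.96 with Smad6, and both passed (exact permutation adjusted p = 0.0208 and 0.0139). Both genes of a pair come from the same library and share its length trend.

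The genes whose level varied most like that of Hamp over the 12 livers, after the group mean was taken off, were Orc5 (r = 0.94), AW146154 (r = 0.93) and Srek1ip1 (r = 0.93). For Id1 they were Ralb (r = 0.94), Msr1 (r = 0.92) and Orc6 (r = 0.92). These r values are descriptions, picked as the highest of 11426 genes in libraries that share depth and length trends. All 3 genes like Id1 were higher in CCl4, Msr1, a macrophage scavenger receptor, by 1.59 on the log2 scale (adjusted p = 3.61e-05). None of the 3 genes like Hamp passed (adjusted p from 0.282 to 0.944).

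Markers of the cell types that make or receive BMP signals are counted here beside the 39.0% of all tested genes that passed. Of 12 markers of sinusoidal endothelial cells, the source of Bmp2 and Bmp6, 1 rose and 1 fell, and their sum was 258 to 428 CPM in oil and 305 to 364 CPM in CCl4. Ehd3 was 2.07-fold lower and Lyve1 1.68-fold higher (adjusted p = 0.00011 and 0.00376). Of 12 markers of capillary and large-vessel endothelium 8 rose, with sums of 74.9 to 102 CPM in oil and 125 to 151 CPM in CCl4. These moved with Acvrl1 and Hey1, which endothelial cells express, and their part in those changes was not tested. Markers of activated stellate cells rose in 12 of 12 (sums of 73.5 to 151 CPM in oil and 523 to 826 CPM in CCl4) and those of macrophages in 10 of 12 (275 to 417 and 679 to 1280 CPM). Between the groups they moved with Id1, Bambi and Fstl1, and their part was not tested. The highest macrophage sums of each group were in CCl4 replicate 6 and oil replicate 5, where Id1 and Bambi were also highest. These are also the libraries richest in short transcripts in each group. The activated stellate sums were instead highest in CCl4 replicate 5 (826 CPM) and oil replicate 1 (151 CPM), where Bambi was at 5.63 and 2.915 CPM. Pericentral hepatocyte markers fell in 9 of 10 (8710 to 11300 and 2110 to 3310 CPM), periportal markers in 4 of 10 with 1 risen (5000 to 8850 and 2960 to 4860 CPM), and the 10 general hepatocyte markers had 1 risen and 2 fallen. The sums of the general markers were 116000 to 162000 CPM in oil and 125000 to 177000 CPM in CCl4. Among them Hnf4a, the hepatocyte identity factor, was 2.08-fold lower (adjusted p = 0.000681) and Ahsg 1.5-fold higher (adjusted p = 0.00123). The fallen pericentral and periportal markers moved with Atoh8, Smad9, Tmprss6 and Tfr2, and their part was not tested. Of 12 quiescent stellate markers 4 were higher and 3 lower, and 5 of 9 tested bile duct markers rose. Skeletal muscle markers summed to 319 CPM in CCl4 replicate 1 and 56.9 CPM in replicate 3, and to at most 1.86 CPM in the other libraries. No marker of these lists was at 0 in all libraries.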

How the data were processed

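The authors deposited whole-number read counts per gene, without normalisation, for 12 whole-liver libraries made with a stranded total RNA kit, per the labels' protocols; the genome build was GRCm38, per the submitters' processing notes. The sources used here do not give the aligner, the counter, its annotation or whether strand was used. All 12 columns of the series table equalled the sample files. Of 36528 gene IDs, 31049 were named from RefSeq (GRCm38.p6) and 78 from GENCODE M21; 5401 had no name. No pair of replicates looked like 1 library deposited again (smallest chi-square per gene between counts, 49.4).

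Groups came from the treatment label, and replicate numbers only name libraries. After filterByExpr and TMM scaling, genes were tested with edgeR 4.0.16 in R 4.3.3 (robust quasi-likelihood F test of 6 CCl4 against 6 oil livers, Benjamini-Hochberg over all tested genes, threshold 0.05). A prior count of 2 was added for log2 CPM, and the SE of a log2 fold change is its size over the square root of F. Transcript length is that of the longest GENCODE transcript, known for 86.6% of tested genes. The total per library (43027778 to 70375852 counts) sets the precision of low genes. Ratios and relations used exact two-sided permutation.

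Alternatives were other scalings (DESeq2 size factors, upper quartile, TMM without mitochondrial and the 20 largest genes), DESeq2 1.42.0, limma-voom 3.58.1 with quality weights, no filter, 50 counts in 6 libraries, non-robust edgeR, a prior count of 0.5, each library left out, the length slope in the model, removal of the length and GC trend (lowess span 0.3), and omission of oil replicate 5 and CCl4 replicate 6 together (in each group the library favouring short transcripts most). The members, lists and alternatives were chosen with earlier results of these data known. Named genes were the 10 members, up to 3 genes of each pathway list and 2 of each marker list with the smallest p, the called gene with the smallest p against a pathway list's majority, 14 genes fixed by name, and the 3 genes most like Hamp and Id1. The edgeR script was tested on simulated counts.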

Additional observations from a re-analysis of the deposited data

Results flagged for a closer look

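Each gene named by the rule was examined in each group of 6 livers, and each ratio likewise, for a highest or lowest liver that stood far from the others; chance marks about 1 in 20 groups, and 6 of 132 groups were marked. None of them was one of the 10 genes of the BMP and hepcidin set or one of their ratios. Acvr2a was at 21.1 CPM in oil replicate 2 and between 28.7 and 33.4 CPM in the other oil livers. Smad1 was at 19.4 CPM in CCl4 replicate 5 and between 14.1 and 15.6 CPM in the other CCl4 livers. Among cell type markers, Ahsg was at 7390 CPM in oil replicate 1 (8910 to 9630 CPM in the others), Spp1 at 19.8 CPM in oil replicate 3 (28.7 to 33.4 CPM), Prom1 at 4.67 CPM in CCl4 replicate 1 (13.0 to 23.9 CPM) and Des at 22.0 CPM in the same liver (8.64 to 11.9 CPM), which held most muscle transcripts.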

How the results depend on the processing

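The directions and calls of Id1, Bambi and Atoh8 held in all 23 alternatives. The count of called members was 3, and 5 without oil replicate 5 and CCl4 replicate 6 together (Id1, Bambi and Hamp higher, Atoh8 and Id2 lower); it was 3 to 4 with any single library left out. Of the pathway genes 27 were called, 17 without CCl4 replicate 4, and 17 to 29 over all single libraries left out. Called counts also moved for other ligands (2, against 4 with limma-voom or the length slope and 1 with the stricter filter) and antagonists (5, against 3 with the stricter filter). Upper-quartile scaling moved the median log2 fold change of all genes from 0.01 to 0.13, with 4164 genes higher and 2022 lower in place of 3305 and 2951. Signs turned only for values that did not pass: Id3 (-0.20 with the length slope in the model, -0.07 with the trends removed, and -0.05 to 0.40 with single libraries left out), Smad6 (0.01) and Smad1 (0.03) with upper-quartile scaling, Smad1 (0.05) and Eng (0.01) with the length slope, and Saa1 (1.36 with limma-voom, 0.07 without oil replicate 5 and CCl4 replicate 6 together, and -1.21 to 0.12 with single libraries left out). With single libraries left out, the ratio of Hamp to Hamp2 ran from -0.36 to 0.21, Hamp to Bmp6 from 1.47 to 2.23 and Smad6 to Smad7 from -0.58 to -0.39. With the trends removed, r of Hamp was 0.12 with Bmp6 in oil, and 0.32 with Smad7 and 0.01 with Atoh8 in CCl4, all of changed sign, and 0.95 with Id1 and 0.96 with Smad6 in oil, both now past the threshold. The cause was not tested. No paired analysis was possible because the labels give the groups no shared replicate numbers. Genes with a mean under 1 CPM in either group, such as Bmp8b in oil and Bmp10 and Id4 in both, rest on few counts there.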
